A study of Mus musculus with 6 samples.

Results

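Endothelial cells line the first blood vessels of the limb bud. They were taken here as every cell that the authors' deposited annotation of cell types calls endothelial, in all 6 single-cell libraries, and were 194 of 26486 labelled cells, of which 185 of 24891 passed the study's minimum of more than 2000 detected genes and entered every value given here. The study asked how a duplication and an inversion at the Lbx1/Fgf8 locus, with whose duplication split-hand/foot malformation type 3 is associated in people, change expression in limb buds at E11.5. Dup hindlimbs came from embryos homozygous for the duplication and were set against wild-type hindlimbs of the same strain, which the labels name c57bl6.J (C57BL/6 here). Inv1 hindlimbs and forelimbs came from embryos homozygous for the inversion, made in G4 embryonic stem cells, a 129/Sv and C57BL/6 hybrid line, and were set against G4 wild-type hindlimbs and forelimbs. The alleles are carried by every cell of the embryo, so no value separates an effect within endothelial cells from one through their neighbours. Lines were made by aggregation of edited stem cells with host embryos, and the labels do not say how many embryos were pooled. Each group was 1 library (10x Genomics 3′ chemistry, trypsin dissociation), so no difference has a replicate check, and every interval printed is an exact 95% interval that covers counting error only.

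Endothelial cells of the early limb arise from somite-derived precursors and form a plexus that is remodelled into a central artery and a peripheral marginal vein. Vascular endothelial growth factor (VEGF) from the mesenchyme acts on the receptors Kdr and Flt1, Notch signalling through Dll4 separates sprouting tip cells from the stalk behind them and promotes arterial fate, and the nuclear receptor Nr2f2 is needed for venous fate. ETS-family transcription factors bind GGAA-centred sites in the promoters and enhancers of most endothelial genes.

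The 185 cells were 34 of 4648 cells in Dup hindlimbs (0.731%, 0.507 to 1.02) and 25 of 2249 in C57BL/6 hindlimbs (1.11%, 0.721 to 1.64). They were 35 of 5947 in Inv1 hindlimbs (0.589%, 0.410 to 0.818) and 45 of 5606 in G4 hindlimbs (0.803%, 0.586 to 1.07), and 30 of 3675 in Inv1 forelimbs (0.816%, 0.551 to 1.16) and 16 of 2766 in G4 forelimbs (0.578%, 0.331 to 0.938). The ratio of shares was 0.658 (0.381 to 1.15) for Dup over C57BL/6, 0.733 (0.458 to 1.17) for Inv1 over G4 hindlimbs and 1.41 (0.745 to 2.77) for Inv1 over G4 forelimbs, so no difference in endothelial share was detectable with these cell numbers. With cells of over 3000 detected genes the Dup ratio was 1.09.

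Depth bounds what these cells can show. They held 358736 to 939682 unique molecular identifiers (UMIs, 1 per captured RNA molecule) per library, so 1 UMI was worth 1.06 to 2.79 CPM (UMIs of a gene in each 1000000 UMIs of the endothelial cells of that library). The median cell had 8715 UMIs in Dup hindlimbs and 11417 in C57BL/6 hindlimbs, 15962 in Inv1 hindlimbs and 15519 in G4 hindlimbs, and 21326 in Inv1 forelimbs and 17259 in G4 forelimbs. A single cell supplied 15.8% of the UMIs of the G4 forelimb set, the smallest of the 6, and at most 9.50% elsewhere. Of 24805 cell barcodes, 86 occurred in more than 1 library. No barcode was shared between endothelial cells of different libraries, and 1 endothelial barcode also occurred in another class of another library.

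The annotation matched the defining genes. All of Cdh5 (VE-cadherin, the adherens junction cadherin), Pecam1 (a homophilic adhesion receptor), Kdr (VEGF receptor 2), Emcn (endomucin, a surface sialomucin), Cldn5 (a tight junction claudin) and Plvap (the protein of fenestral diaphragms) had UMIs in 154 of the 185 cells, and at least 3 of the 6 in 182. Outside the class, 23956 of 24706 cells had UMIs of none of the 6, and 5 had UMIs of 3 or more. Cdh5 stood at 471 and 536 CPM in Dup and C57BL/6 hindlimbs, 534 and 485 CPM in Inv1 and G4 hindlimbs, and 641 and 831 CPM in Inv1 and G4 forelimbs, against 0.25 to 0.807 CPM in all other cells. Emcn had 741 and 744 CPM in Dup and C57BL/6 hindlimbs, 929 and 954 CPM in Inv1 and G4 hindlimbs, and 837 and 664 CPM in Inv1 and G4 forelimbs. Its level in other cells was 0.246 to 1.03 CPM. All 6 genes were at 226 CPM or more in every endothelial set and at 2.20 CPM or less in every set of other cells.

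**Figure D1:**
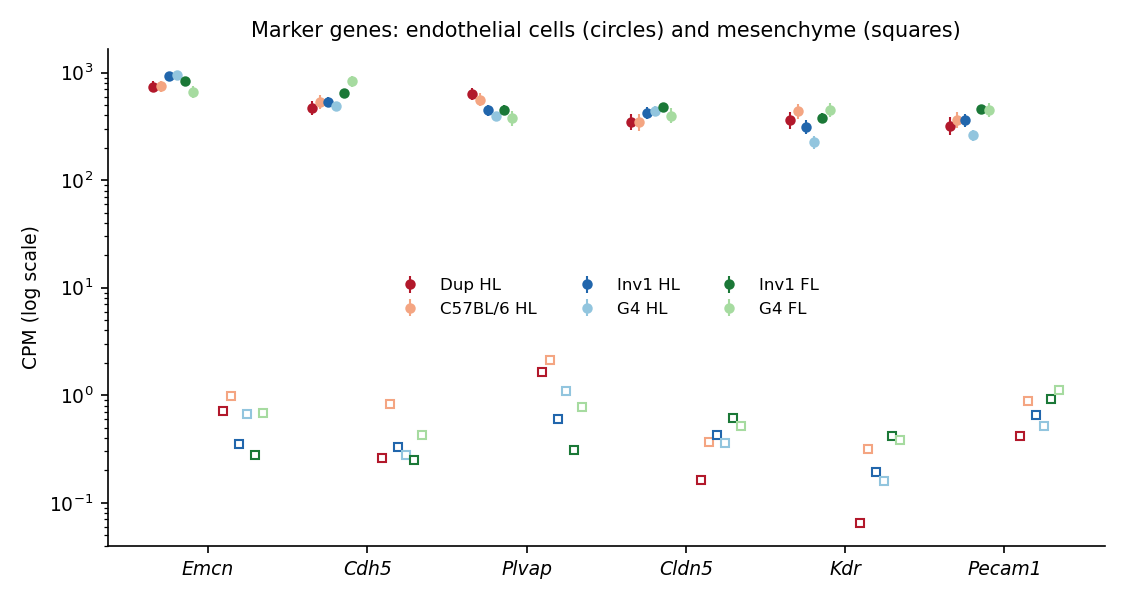
Level of each of the 6 defining genes (x axis) in CPM (y axis, log scale), with circles for endothelial cells of each library and squares for mesenchyme; bars on circles are exact 95% Poisson intervals. Each gene sits at 226 CPM or more in endothelial cells and at 2.15 CPM or less in mesenchyme.

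Markers of other cell types were below the level of the class each was set against and not equal between libraries. Mural and erythroid markers were set against mesenchyme, which is not their own class. The summed level of 14 mesenchyme markers (Prrx1, Twist1, Col1a1 and others, without Tcf4) was 18.9% of its level in mesenchyme in Dup endothelial cells and 11.1% in C57BL/6 endothelial cells. It was 7.41% in Inv1 hindlimbs and 2.85% in G4 hindlimbs, and 2.93% in Inv1 forelimbs and 12.1% in G4 forelimbs. Skeletal muscle markers reached 4.12% of their level in muscle cells in G4 forelimbs and 0.357 to 1.94% elsewhere, while macrophage markers stayed at 0.118 to 0.479% and epithelial markers at 0 to 0.351% of their own classes. Neural and Schwann cell markers summed to 27.4% of their level in neuronal cells in G4 hindlimbs and 4.22 to 14% elsewhere. The neuronal level was itself low in G4 hindlimbs, 315 CPM from 26 UMIs, against 844 to 1139 CPM elsewhere. Their endothelial sum was 86.2 CPM in G4 hindlimbs and highest in C57BL/6 hindlimbs, at 128 CPM. Mural cell markers summed to 23.8 to 83.9% of their level in mesenchyme. Blood RNA was widespread: haemoglobin and other erythroid genes stood at 36.1 to 90.7% of their mesenchyme level. Counts from 14 endothelial cells with 10 or more mesenchyme markers, or with 2 or more muscle, macrophage or epithelial markers, were left out in an alternative, named here as without the mixed cells. The G4 forelimb set had 4 of the 14 mixed cells, which gave 21.1% of its UMIs.

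The 30 genes that most separated these cells from all others are a description of the class, since the annotation was made from the same counts. They were drawn from 2352 genes with at least 50 CPM in the endothelial cells of every library, and their endothelial level was at least 142 to 1056 times that of other cells in the library where the ratio was lowest. Aplnr, the apelin receptor, led at no less than 1056 times, followed by Kdr (908), Kcne3 (871), a potassium channel subunit, Cldn5 (744), Emcn (721), Flt1 (686), Cdh5 (664) and Robo4 (508). After them came Gimap4, Icam2, Tie1, Cd93, 8430408G22Rik, Pecam1, Esam, Col15a1, Plxnd1, Klhl4, Plvap, Sox17, Myct1, Cd34, Gimap1, Mfng, Ecscr, Pdgfb, Gimap6, Tmem204, Eng and Epas1. Adhesion molecules (Icam2, Esam, Cd34), receptors for guidance cues (Plxnd1 for semaphorins, Robo4) and 3 GTPases of the Gimap family were among these.

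Promoters of the leading genes are shown because the ETS sites in them are the sequence feature that endothelial genes are best known to share. The RefSeq promoter table for build GRCm38.p6 held 17 promoters of 16 of the 30 genes, and the 250 bases before each start were searched on both strands. The ETS core with its common flanks, AGGAAG, was in 11 of 17 promoters (64.7%), against 29.5% of all 32851 promoters of the same length. Longer forms that contain it were rarer: CAGGAAG in 29.4% against 10.8%, and ACAGGAAG in 11.8% against 2.90%. The widespread ETS form CCGGAAGT was in 0 of 17 against 2.88%. These matches are a description of letters and not evidence of binding. Shown are 3 of the promoters on the strand of the gene from 5′ to 3′, with AGGAAG or its reverse complement CTTCCT in capitals: Emcn on the plus strand at chr3:137340828-137341077 with sites 93 and 174 bases before the start, Flt1 on the minus strand at chr5:147726012-147726261 with sites 129 and 53 bases before the start, and Robo4 on the plus strand at chr9:37401722-37401971 with a site 49 bases before the start.
Emcn: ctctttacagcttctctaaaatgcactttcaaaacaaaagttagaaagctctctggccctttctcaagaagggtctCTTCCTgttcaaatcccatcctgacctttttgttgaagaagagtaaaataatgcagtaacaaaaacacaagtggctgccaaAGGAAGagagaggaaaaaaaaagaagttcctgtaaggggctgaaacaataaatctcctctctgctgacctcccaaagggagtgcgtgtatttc
Flt1: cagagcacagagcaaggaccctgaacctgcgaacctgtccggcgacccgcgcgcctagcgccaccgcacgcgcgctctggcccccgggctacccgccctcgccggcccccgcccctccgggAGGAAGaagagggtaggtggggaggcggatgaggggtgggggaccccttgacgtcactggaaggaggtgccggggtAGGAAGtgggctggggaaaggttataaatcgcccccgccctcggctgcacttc
Robo4: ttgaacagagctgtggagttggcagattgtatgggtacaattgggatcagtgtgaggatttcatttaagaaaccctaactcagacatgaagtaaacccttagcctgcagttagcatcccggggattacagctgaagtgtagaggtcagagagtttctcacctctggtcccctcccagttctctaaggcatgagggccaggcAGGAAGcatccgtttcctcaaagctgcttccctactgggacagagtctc

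Transcription factors of the endothelial programme ranged widely in level. Sox18, an SRY-related factor of vessel development, had 220 and 235 CPM in Dup and C57BL/6 hindlimbs, 249 and 273 CPM in Inv1 and G4 hindlimbs, and 344 and 260 CPM in Inv1 and G4 forelimbs. Lmo2, the bridging protein of haemato-endothelial complexes, ranged from 209 to 348 CPM, the ETS factor Ets1 from 214 to 359 CPM and Mef2c, a MADS-box factor, from 262 to 451 CPM over the 6 libraries. The ETS factors Fli1 and Erg were at 117 to 223 CPM and 6.48 to 22.3 CPM, and Bcl6b, a repressor expressed in endothelium, was at 47.9 to 113 CPM against 0.238 to 0.877 CPM in other cells. Etv2, the ETS factor that starts the programme in mesodermal precursors, had 0 UMIs in all 6 endothelial sets, which allows up to 3.19 to 8.36 CPM. Its level in other cells, 0.493 to 1.48 CPM, was below that limit too.

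VEGF receptors and their main ligand were found in separate cell classes. Endothelial Kdr was at 454 CPM in G4 forelimbs, its highest level, and 226 CPM in G4 hindlimbs, its lowest. Flt1, which also acts as a decoy for the ligand, had its extremes in the same libraries, 412 CPM in G4 forelimbs and 159 CPM in G4 hindlimbs. Flt4, the receptor for Vegfc, had 39.0 and 76.5 CPM in Dup and C57BL/6 hindlimbs and 72.8 to 118 CPM in the other 4 libraries. Vegfa itself was at 0 to 5.58 CPM in endothelial cells, against 18.8 to 42.2 CPM in mesenchyme and 11.9 to 32.3 CPM in muscle cells. Cells of the apical ridge had 13.8 to 62.0 CPM of it, from 68 UMIs in all. Angpt1, the ligand of the receptor Tek, showed the same split, with 0 to 2.73 CPM in endothelial cells and 5.44 to 15.9 CPM in mesenchyme. Mesenchyme was not its highest class, since Angpt1 had 7.75 to 64.0 CPM in apical ridge cells and 0 to 38.5 CPM in immune cells. Tek had 69.2 to 136 CPM in endothelial cells and 0.576 to 2.39 CPM in mesenchyme. In the opposite direction, Pdgfb, which recruits mural cells, was at 73.4 to 146 CPM in endothelial cells and its receptor Pdgfrb at 28.9 to 53.4 CPM in mesenchyme and 0 to 7.87 CPM in endothelial cells. Apelin (Apln) and its receptor Aplnr were both endothelial, at 57.4 to 164 CPM and 231 to 540 CPM. Placental growth factor (Pgf) was highest in muscle cells, at 32.2 to 43.6 CPM, against 0 to 5.58 CPM in endothelial cells.

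Basement membrane genes, taken as a sum, were higher in endothelial cells than in mesenchyme. The summed level of 12 of them, 3491 to 5277 CPM in endothelial cells, was 18.5 and 17.3 times that of mesenchyme in Dup and C57BL/6 hindlimbs, 18.3 and 16.8 times in Inv1 and G4 hindlimbs, and 18.2 and 14.6 times in Inv1 and G4 forelimbs. Sparc, a collagen-binding matricellular protein, had 1887 and 1624 CPM in Dup and C57BL/6 hindlimbs and 958 to 1642 CPM elsewhere, and Col4a1, a type IV collagen chain, had 755 to 1332 CPM. Ramp2, which pairs with Calcrl to form the adrenomedullin receptor, had 784 to 1107 CPM against 9.91 to 18.3 CPM in other cells. RNA of 17 S phase genes summed to 62.7 to 87.9% and that of 18 G2/M genes to 80.7 to 99.9% of its mesenchyme level. Of the lymphatic list, Prox1 and Reln had 0 to 2.79 CPM and 0 CPM, Pdpn had 0 to 8.36 CPM, Flt4 had 39.0 to 118 CPM in the 6 sets, and Mmrn1 had 41.8 to 126 CPM in 5 of them.

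Arterial character varied among the cells of every library. Gja4 (connexin 37), a gap junction protein of arterial endothelium, had UMIs in 7 of 34 Dup and 5 of 25 C57BL/6 hindlimb endothelial cells, 11 of 35 Inv1 and 11 of 45 G4 hindlimb cells, and 6 of 30 Inv1 and 5 of 16 G4 forelimb cells. Among other cells, with medians of 6717 to 10066 UMIs, the share was 0.135 to 0.225%. After thinning each endothelial cell to 4000 UMIs, Gja4 was seen in 2 of 34 Dup and 4 of 25 C57BL/6 cells, 6 of 34 Inv1 and 6 of 45 G4 hindlimb cells, and 5 of 30 Inv1 and 3 of 16 G4 forelimb cells. The genes that differed between cells with and without Gja4 UMIs were then listed within each library, as a description, because a cell without a UMI may still express the gene.

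Several genes of the arterial and Notch lists were higher in cells with Gja4 UMIs in each of the 6 libraries. Hey1, a Notch-induced repressor, had 72 UMIs (93.3 CPM over the 6 libraries) in cells with Gja4 and 17 UMIs (6.33 CPM) in cells without, a pooled ratio of 14.7. Unc5b, a netrin receptor of arterial and tip cells, had 181 CPM in cells with Gja4 and 14.2 CPM in cells without, a pooled ratio of 12.8. The pooled ratio was 3.54 for the zinc finger factor Mecom, 3.24 for the growth factor binding protein Igfbp3, 3.00 for the BMP target Id1, 2.63 for the artery-enriched ligand Efnb2, 2.53 for the flow-induced factor Klf2, 2.20 for Notch4, 2.12 for Notch1 and 1.97 for the VEGF coreceptor Nrp1, all higher in 6 of 6 libraries. Of these, Igfbp3, Id1 and Klf2 belong to neither the arterial nor the Notch list. Dll4 was higher in 5 of 6, and so were Sox17 and Acvrl1 of the arterial list, at 1.35 and 1.37. Other genes of the Notch list were mixed, with Nrarp at 1.72 (higher in 6 of 6), Hes1 at 1.13 (3 of 6) and Mfng at 1.00 (3 of 6). Aplnr, a gene of venous and capillary endothelium, was lower in 6 of 6 libraries with a pooled ratio of 0.583, and so was Emcn at 0.647, while Nr2f2 was lower in 5 of 6 at 0.804. The other genes of the venous list were mixed, with pooled ratios of 1.16 for Ephb4 (higher in 3 of 6 libraries), 1.25 for Flt4 (4 of 6), 1.16 for Smarca4 (4 of 6) and 1.36 for Emp1 (4 of 6), against 0.780 for Nrp2 (2 of 6) and 0.440 for Dab2 (1 of 6). Among genes of all endothelium, Cdh5 and Kdr were higher in 6 of 6 libraries, at 1.46 and 1.29, and Flt1 in 5 of 6 at 1.38, while Cldn5 (0.994) and Plvap (1.16) were higher in some libraries and lower in others. Cells with Gja4 UMIs had higher median depth in 4 of 6 libraries, and lower in both hindlimb libraries of the G4 background.

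**Figure D2:**
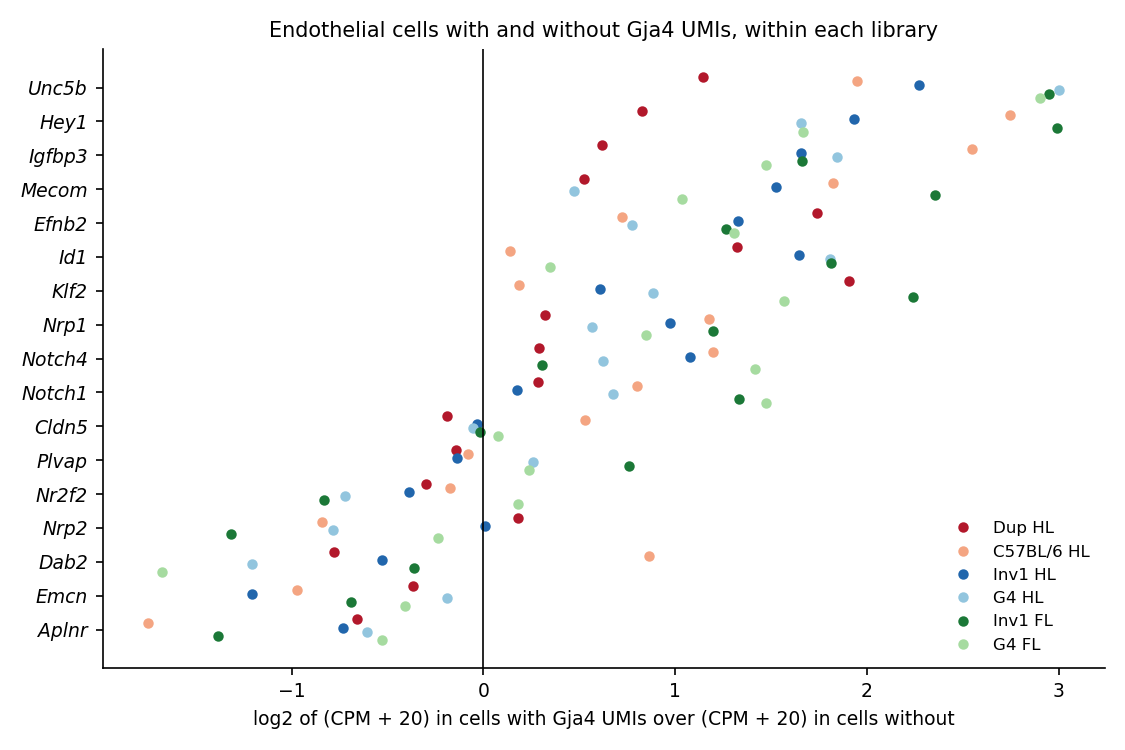
Difference between endothelial cells with and without Gja4 UMIs in each library, as log2 of the ratio of CPM + 20 (x axis), for arterial, general and venous genes (y axis); 1 point per library. Points of Unc5b, Hey1, Igfbp3, Mecom, Efnb2, Id1, Klf2, Nrp1, Notch4 and Notch1 lie right of 0 in all 6 libraries, and those of Emcn and Aplnr lie left of it.

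A second connexin of arteries, Gja5, was in the table of the G4 and Inv1 libraries only. It had 7 UMIs in 2 Inv1 hindlimb endothelial cells and 0 in G4 hindlimb ones, and 20 UMIs in 4 Inv1 forelimb endothelial cells and 1 in a G4 forelimb one. All 4 sets rest on 4 cells or fewer.

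At the Lbx1/Fgf8 locus on chromosome 19, endothelial cells had UMIs mainly of the broadly expressed genes between Lbx1 and Fgf8. On build NCBIM37 (mm9) the genes there are Lbx1 at chr19:45307178-45310301, Btrc at chr19:45438224-45607831, Poll at chr19:45626765-45635021, Dpcd at chr19:45635105-45652769, Fbxw4 at chr19:45652744-45734802 and Fgf8 at chr19:45811288-45817405. Lbx1, a homeobox factor of migrating muscle precursors, had 0 UMIs in all 6 endothelial sets, and Fgf8, the growth factor of the apical ridge, had 1 UMI, in G4 forelimbs. The 4 remaining duplicated genes, which encode an F-box protein (Btrc), a DNA polymerase (Poll), a ciliary protein (Dpcd) and a further F-box protein (Fbxw4), summed to 209 CPM in Dup hindlimbs, against 128 CPM in C57BL/6 hindlimbs. That was a ratio of 1.63 (1.12 to 2.40) from 75 and 47 UMIs, against 2.14 (2.03 to 2.25) for the same sum in mesenchyme. Dpcd carried most of it, with 159 CPM in Dup hindlimbs against 92.9 CPM in C57BL/6 hindlimbs (ratio 1.71, 1.10 to 2.70). Btrc had 8 UMIs in Dup and 4 UMIs in C57BL/6 hindlimbs, Poll 6 and 3 UMIs, and Fbxw4 4 and 6 UMIs, none with an interval away from 1. Dpcd and Fbxw4 overlap at their ends, so reads there could count for either.

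Fbxw4, which the inversion disrupts, had no UMI in Inv1 endothelial cells. In hindlimbs 0 UMIs in Inv1 stood against 9 UMIs (9.58 CPM) in G4, with an interval of the ratio of 0 to 0.771. With the 0 set to a floor of 3 counts Fbxw4 was 1.97-fold lower, which leaves out the counting error of the 9 UMIs. In forelimbs 0 UMIs in Inv1 stood against 2 UMIs in G4, which is under the floor and gives no fold. Mesenchyme, with far more cells, had 0.330 CPM in Inv1 hindlimbs against 7.64 CPM in G4 hindlimbs and 0.335 CPM in Inv1 forelimbs against 10.0 CPM in G4 forelimbs. Endothelial Btrc was at 22.7 CPM in Inv1 and 17.0 CPM in G4 hindlimbs (ratio 1.33, 0.602 to 2.91) and at 8.83 CPM in Inv1 and 31.5 CPM in G4 forelimbs (ratio 0.280, 0.0935 to 0.773), the second from 7 and 12 UMIs. The sum of the 4 genes had a ratio of 0.849 (0.640 to 1.12) in hindlimbs and 1.12 (0.794 to 1.59) in forelimbs for Inv1 over G4.

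**Figure D3:**
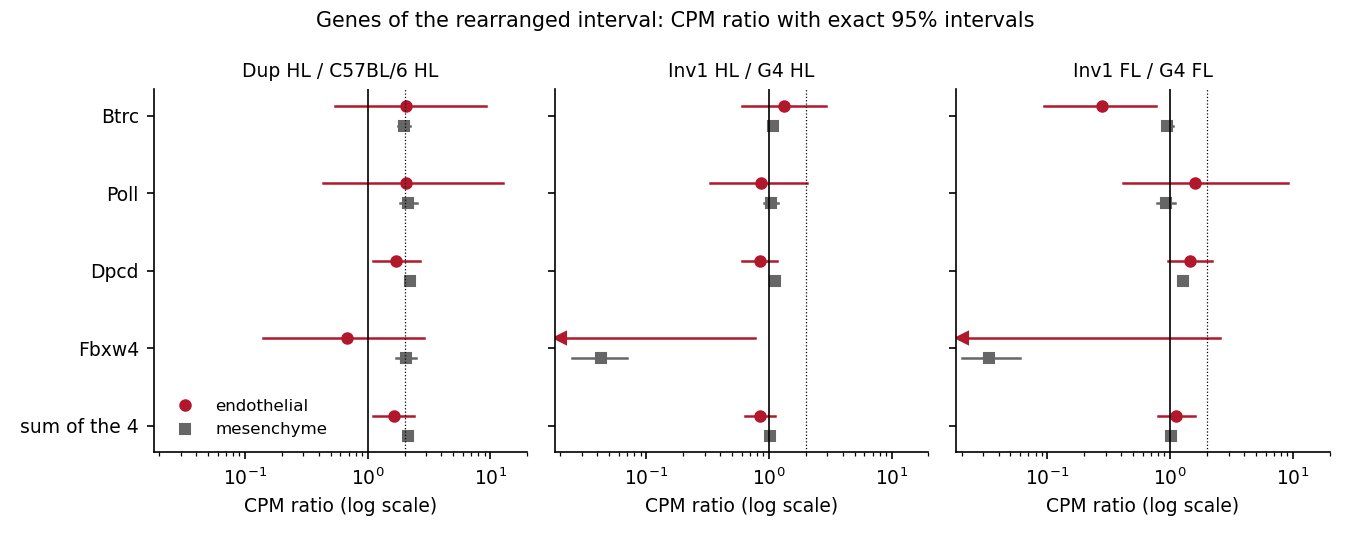
CPM ratio of mutant over wild type (x axis, log scale) for the genes between Lbx1 and Fgf8 and their sum (y axis), in endothelial cells and in mesenchyme, with exact 95% intervals and 1 panel per pair of libraries. The endothelial sum lies at 1.63 in Dup hindlimbs, and Fbxw4 has no endothelial point in either Inv1 panel because it had 0 UMIs there.

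Between Dup and C57BL/6 hindlimbs, 3188 genes averaged 50 CPM or more in endothelial cells, and 35 of them (1.1%) were at least 2-fold higher and 41 (1.29%) at least 2-fold lower in Dup. Hspb1, a small heat shock protein, had 86.4 CPM in Dup and 13.7 CPM in C57BL/6 hindlimbs (ratio 6.32, 2.44 to 20.8), against a mesenchyme ratio of 1.10. Klf2, a shear-stress-induced transcription factor, had 583 CPM in Dup and 271 CPM in C57BL/6 hindlimbs (2.15, 1.69 to 2.76). Egr1, an immediate early factor, had 109 CPM in Dup and 38.3 CPM in C57BL/6 hindlimbs (2.84, 1.51 to 5.66), and Fos had 134 CPM in Dup and 57.4 CPM in C57BL/6 hindlimbs (2.33, 1.37 to 4.10). Klf2, Egr1 and Fos differed the same way in mesenchyme, by ratios of 2.76, 4.44 and 3.19. The Klf2 ratio was 1.22 as a mean over cells, where each cell weighs the same, and 3.39 over cells with more than 3000 genes, and 1 cell held 28.2% of the Dup Klf2 UMIs. Of 8 measured immediate early and dissociation genes 7 were higher in Dup, with a median ratio of 1.46. Over all 3188 genes 1483 were higher, with a median of 0.978.

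Other named genes that were higher in Dup endothelial cells were Pitx1 (112 CPM in Dup and 35.5 CPM in C57BL/6 hindlimbs), Crabp2 (92 CPM in Dup and 30.1 CPM in C57BL/6), Fxyd6 (83.6 CPM in Dup and 24.6 CPM in C57BL/6), Gadd45g (83.6 CPM in Dup and 27.3 CPM in C57BL/6) and the imprinted long noncoding RNA Meg3 (201 CPM in Dup and 95.7 CPM in C57BL/6). Pitx1, the hindlimb selector factor, and Crabp2, a retinoic acid binding protein, are genes of mesenchyme, whose markers were also higher in the Dup set (18.9% against 11.1% in C57BL/6); without the mixed cells their ratios were 4.40 and 3.33. In the cells with at most 2 of the 14 mesenchyme markers, a subset chosen after seeing the data, Pitx1 was lower in Dup, at 9.09 CPM (2 UMIs) in Dup against 18.3 CPM (4 UMIs) in C57BL/6. Lower in Dup were the Wnt receptor Fzd10 (13.9 CPM in Dup and 87.5 CPM in C57BL/6, ratio 0.159, 0.0485 to 0.412), whose mesenchyme ratio was 1.21, and 2 enzymes of lipid synthesis, Scd2 (112 CPM in Dup and 293 CPM in C57BL/6) and Fdps (50.2 CPM in Dup and 131 CPM in C57BL/6). Pcdh17 (139 CPM in Dup and 312 CPM in C57BL/6), Adam15 (30.7 CPM in Dup and 104 CPM in C57BL/6), Gpr183 (36.2 CPM in Dup and 107 CPM in C57BL/6), Elk3 (156 CPM in Dup and 317 CPM in C57BL/6) and Eif3j (153 CPM in Dup and 298 CPM in C57BL/6) followed. Elk3 is an ETS repressor of angiogenesis-related genes. Fdps makes the isoprenoid precursor of cholesterol and Scd2 desaturates fatty acids. All 5 measured genes of the VEGF list and 10 of 11 basement membrane genes were lower in Dup, by medians of 0.660 and 0.709, and 13 of 14 S phase genes by a median of 0.876, against 1705 of all 3188 genes lower and a median of 0.978. The summed level of the 12 basement membrane genes was 4485 CPM in Dup and 5033 CPM in C57BL/6. In the VEGF list the interval held 1 for Nrp1, at 153 CPM in Dup and 189 CPM in C57BL/6 (0.813, 0.560 to 1.18), and for Kdr (0.822, 0.647 to 1.04).

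Between Inv1 and G4 hindlimbs fewer genes differed: of 2972 measured in endothelial cells, 18 (0.606%) were at least 2-fold higher and 4 (0.135%) at least 2-fold lower in Inv1. In forelimbs, of 3325 genes, 41 (1.23%) were at least 2-fold higher and 231 (6.95%) at least 2-fold lower in Inv1, and all of these rest on the 16 G4 forelimb cells. Of 2841 genes measured in both limbs 37.6% had the same sign, and 2 were 2-fold higher and 2 were 2-fold lower in both.

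H19, an imprinted long noncoding RNA, and Gja4 were the 2 genes at least 2-fold higher in Inv1 in both limbs. H19 had 571 CPM in Inv1 hindlimbs against 158 CPM in G4 hindlimbs (3.63, 2.99 to 4.43) and 588 CPM in Inv1 forelimbs against 207 CPM in G4 forelimbs (2.84, 2.23 to 3.65). It had UMIs in 34 of 35 Inv1 against 14 of 45 G4 hindlimb cells, and in 28 of 30 Inv1 against 8 of 16 G4 forelimb cells. Mesenchyme differed alike, with ratios of 3.69 in hindlimbs and 2.45 in forelimbs. Endothelial H19 was at 917 CPM in Dup and 722 CPM in C57BL/6 hindlimbs, both above the 4 G4-background libraries, and that ratio of 1.27 (1.08 to 1.5) turned to 0.93 as a mean over cells and was 1.94 over cells with more than 3000 genes. Gja4 had 89.0 CPM in Inv1 hindlimbs against 36.2 CPM in G4 hindlimbs (2.46, 1.58 to 3.89) and 111 CPM in Inv1 forelimbs against 34.1 CPM in G4 forelimbs (3.25, 1.81 to 6.35). The hindlimb ratio was 1.33 as a mean over cells and 6.68 over cells with more than 3000 genes. The Gja4 UMIs came from 11 of 35 Inv1 and 11 of 45 G4 hindlimb cells, and 6 of 30 Inv1 and 5 of 16 G4 forelimb cells. In forelimbs the share of cells with Gja4 was thus lower in Inv1 (20%) than in G4 (31.25%), opposite to the CPM ratio. A single cell held 32.7% of the Gja4 UMIs in Inv1 hindlimbs and 29.4% in G4 hindlimbs, and 27.3% in Inv1 forelimbs and 38.5% in G4 forelimbs. Dup and C57BL/6 hindlimbs had 106 and 123 CPM of Gja4 (0.861, 0.544 to 1.36), with 1.99 over cells of more than 3000 genes.

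Of further genes higher in Inv1 in both limbs, Ctgf, a matricellular growth factor, had 108 CPM in Inv1 and 44.7 CPM in G4 hindlimbs (2.43, 1.63 to 3.66) and 90.8 CPM in Inv1 and 52.5 CPM in G4 forelimbs (1.73, 1.04 to 3.00). Gja1, a connexin, had ratios of 2.05 (1.44 to 2.93) in hindlimbs and 1.45 (1.04 to 2.06) in forelimbs, Hes1, a Notch target, 1.58 and 1.61, Phlda1 1.83 and 2.0, Sat1 1.56 and 3.53, and Tcf15, a factor of capillary and somite-derived cells, 1.63 (1.11 to 2.41) and 1.63 (0.987 to 2.79), the forelimb interval holding 1. Lower in both limbs were the unnamed gene ENSMUSG00000096768, with 110 CPM in Inv1 and 333 CPM in G4 hindlimbs and 112 CPM in Inv1 and 309 CPM in G4 forelimbs, whose mesenchyme ratios were 0.405 and 0.452, and Fos, Klf2, Bex2, Ckb, Acat2, Ccdc34 and Erh. The creatine kinase Ckb had ratios of 0.527 in hindlimbs and 0.537 in forelimbs, and the forelimb ratio was 1.36 without the mixed cells. Acat2, an enzyme of acetoacetyl-CoA synthesis, had ratios of 0.528 and 0.466, Bex2 0.548 and 0.422, Ccdc34 0.707 and 0.741 and Erh 0.707 and 0.752.

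Klf2 and Fos were lower in Inv1 endothelial cells of both limbs, but not in Inv1 mesenchyme. Endothelial Klf2 had 269 CPM in Inv1 against 418 CPM in G4 hindlimbs (0.643, 0.533 to 0.772) and 160 CPM in Inv1 against 354 CPM in G4 forelimbs (0.452, 0.352 to 0.581), while the mesenchyme ratios were 1.01 and 1.63. Endothelial Fos had 30.8 CPM in Inv1 against 83.0 CPM in G4 hindlimbs (0.371, 0.212 to 0.618) and 25.2 CPM in Inv1 against 186 CPM in G4 forelimbs (0.135, 0.0781 to 0.225), while the mesenchyme ratios were 1.27 and 1.88. The Fos counts were 19 UMIs in Inv1 and 78 UMIs in G4 hindlimbs, and 20 UMIs in Inv1 and 71 UMIs in G4 forelimbs, and 1 cell held 36.8% of those in Inv1 hindlimbs. As a mean over cells the hindlimb Fos ratio was 0.604. Over the immediate early list, 4 of 6 measured genes were lower in Inv1 hindlimbs (median ratio 0.907), against 1312 of all 2972 genes (median 1.03). In forelimbs 5 of 8 were lower in Inv1 (median ratio 0.954), against 1899 of all 3325 genes (median 0.929). The forelimb list was thus near the level of all genes. Egr1 had 18.9 CPM in Inv1 against 91.8 CPM in G4 forelimbs (0.206, 0.105 to 0.387), while its mesenchyme ratio was 3.28. The 35 Egr1 UMIs in G4 forelimbs came from 5 cells, and 1 cell held 54.3% of them, so the endothelial ratio rests largely on that cell.

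Esm1, Kcne3 and Adm, 3 genes of the tip cell list, were higher in Inv1 forelimbs than in any other library. Esm1, a secreted proteoglycan of tip cells, had 116 CPM in Inv1 forelimbs against 18.4 CPM in G4 forelimbs (6.32, 2.95 to 16.2), and 18.4 to 35.5 CPM in the 5 other libraries. Its 92 UMIs in Inv1 forelimbs came from 21 of 30 cells, with at most 21.7% from 1 cell. Kcne3 had 584 CPM in Inv1 forelimbs against 210 CPM in G4 forelimbs (2.78, 2.19 to 3.57), with 206 to 280 CPM in the other libraries. Adm, adrenomedullin, had 47.9 CPM (38 UMIs) in Inv1 forelimbs against 0 UMIs in G4 forelimbs. With the 0 set to a floor of 3 counts it was 6.09-fold higher. Mesenchyme differed in the same direction at a far lower level, with 0.811 CPM in Inv1 and 0 UMIs in G4 forelimbs. Gpihbp1, the capillary anchor of lipoprotein lipase, had 125 CPM in Inv1 forelimbs against 42.0 CPM in G4 forelimbs (2.97, 1.74 to 5.41). Tm4sf1, a tetraspanin-like protein of endothelial cells that was chosen after its values were seen, had 236 CPM in Inv1 forelimbs against 31.5 CPM in G4 forelimbs (7.49, 4.19 to 14.8).

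A comparison with Inv1 hindlimbs does not use the G4 forelimb cells, but it sets limb against limb and not genotype against genotype. Inv1 forelimbs over Inv1 hindlimbs had a ratio of 3.98 (2.38 to 7.01) for Esm1, 2.08 (1.75 to 2.5) for Kcne3 and 3.83 (2.69 to 5.59) for Tm4sf1. Of the tip cell list, 9 of 9 measured genes were higher in Inv1 forelimbs than hindlimbs (median 1.68), against 1509 of all 3066 genes (median 0.997). Between G4 limbs 6 of 7 were higher in forelimbs (median 1.79), against 1902 of all 3243 genes (median 1.11). Between genotypes, 8 of 9 measured tip cell genes were higher in Inv1 than in G4 forelimbs, against 1426 of all 3325 genes. The median ratio was 1.32 against 0.929 over all genes. In hindlimbs 4 of 5 were higher in Inv1 with a median of 1.2, against 1660 of all 2972 genes and a median of 1.03. Esm1 was at 29.1 CPM in Inv1 and 31.9 CPM in G4 hindlimbs. Without the mixed cells the forelimb Esm1 ratio was 9.63 and the Kcne3 ratio 2.86.

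Most measured genes of the venous list were lower in Inv1 than in G4 forelimbs. Aplnr had 231 CPM in Inv1 against 540 CPM in G4 forelimbs (0.427, 0.348 to 0.524), Nr2f2 had 90.8 CPM in Inv1 against 218 CPM in G4 forelimbs (0.417, 0.300 to 0.579) and Nrp2, the coreceptor for Vegfc, had 99.6 CPM in Inv1 against 241 CPM in G4 forelimbs (0.413, 0.302 to 0.564). Of 7 measured venous genes 6 were lower, with a median ratio of 0.626, against 1899 of all 3325 genes lower and a median of 0.929. In hindlimbs 4 of 6 were higher in Inv1, with a median of 1.39, against 1660 of all 2972 genes higher and a median of 1.03. Nr2f2 had a hindlimb ratio of 1.41 (1.06 to 1.87). Between G4 limbs all 6 measured venous genes were higher in forelimbs (median 1.87), against 1902 of all 3243 genes (median 1.11). Between Inv1 limbs 5 of 6 were lower in forelimbs (median 0.817), against 1557 of all 3066 genes (median 0.997). Nr2f2 and Nrp2 are also expressed by limb mesenchyme, at 84.1 to 172 CPM and 132 to 286 CPM, whereas Aplnr was at 0.0971 to 0.342 CPM there. Mesenchyme markers were at 2.93% in Inv1 and 12.1% in G4 forelimb cells, and without the mixed cells the ratios were 0.391 for Aplnr, 0.344 for Nr2f2 and 0.383 for Nrp2. One G4 forelimb cell held 26.7% of Aplnr UMIs.

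**Figure D4:**
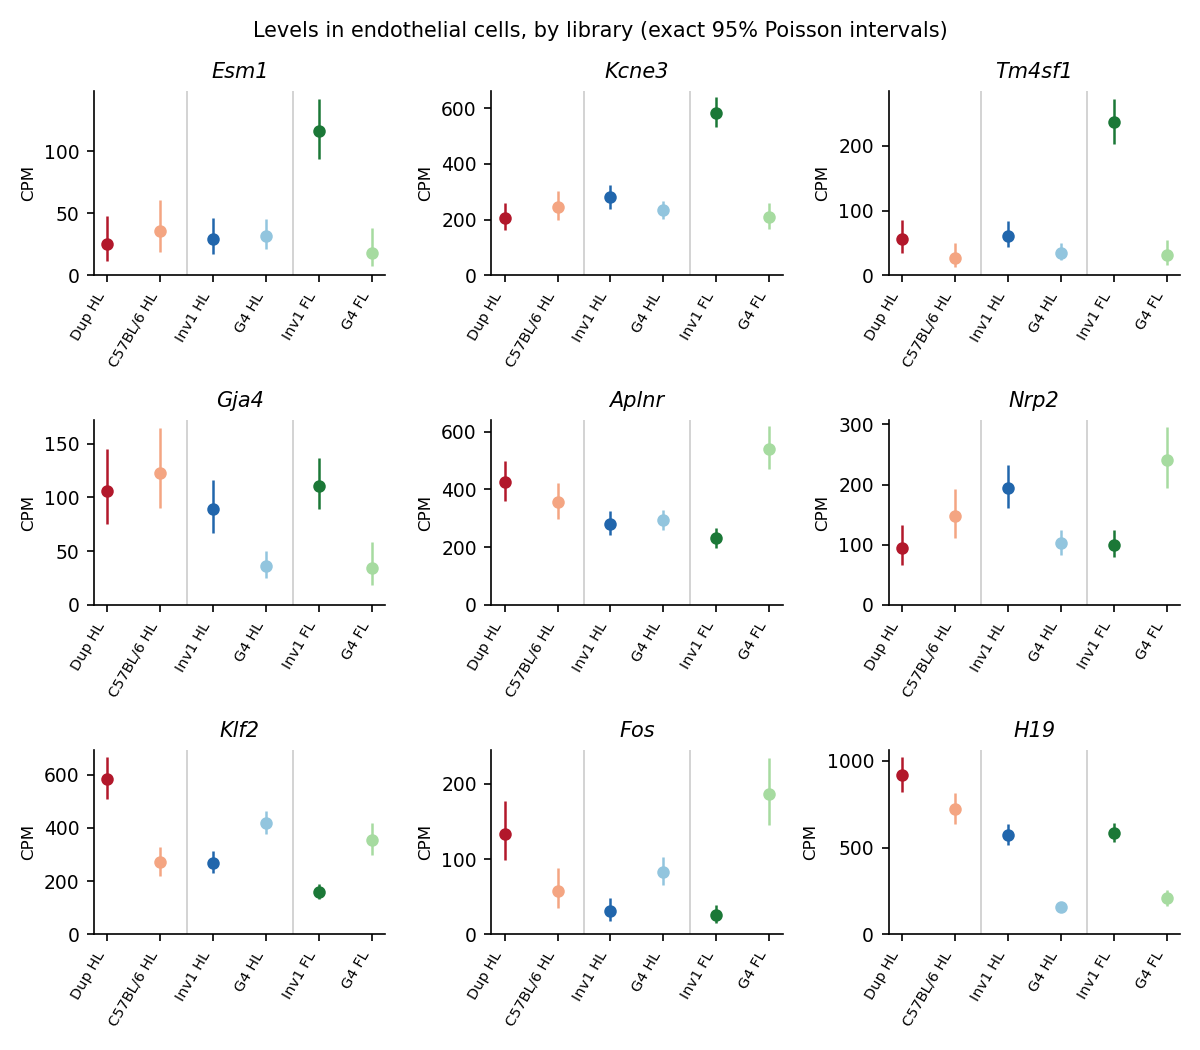
Endothelial level in CPM (y axis, from 0) in each library (x axis) for tip cell, arterial, venous, immediate early and imprinted genes; bars are exact 95% Poisson intervals and grey lines part the pairs. Inv1 forelimbs stand out in Esm1, Kcne3 and Tm4sf1, and both G4 libraries lie below their Inv1 partners in Gja4 and H19.

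Between the limbs of G4 wild types, 392 of 3243 genes (12.1%) were at least 2-fold higher and 25 (0.771%) at least 2-fold lower in forelimb endothelial cells. A scaling by the median of ratios moved every log2 ratio of this pair down by 0.14, and 237 genes then passed in the higher direction. All 11 measured basement membrane genes were higher in forelimbs, with a median ratio of 1.54, and all 5 genes of the VEGF list, with a median of 2.01. Over all 3243 genes 1902 were higher, with a median of 1.11. Kdr itself had 454 CPM in G4 forelimbs and 226 CPM in G4 hindlimbs. The forelimb set was the one with 16 cells and with muscle and mesenchyme markers, and their part in this was not tested.

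RNA of some Hox genes was detected in endothelial cells of the hindlimb. Hox factors specify position along the limb, and this group of genes was set out after its values were seen. Hoxa7 had 30.7 CPM in Dup and 27.3 CPM in C57BL/6 hindlimb endothelial cells and 13 CPM in Inv1 and 14.9 CPM in G4 ones, from 8 to 14 UMIs a library. That was 175% of the mesenchyme level in Dup, 120% in C57BL/6, 96.6% in Inv1 and 85.6% in G4 hindlimbs. Hoxd9 stood at 58.5% in Dup, 14% in C57BL/6, 67.8% in Inv1 and 50.9% in G4 hindlimbs, and Hoxa9 at 40.0% in Dup, 21.9% in C57BL/6, 17.5% in Inv1 and 19.4% in G4 hindlimbs. The distal gene Hoxd13 was at 11.7% in Dup and 36.6% in C57BL/6 hindlimbs and 0.891% in Inv1 and 2.46% in G4 hindlimbs, close to the ranges of the mesenchyme factors Prrx1 (1.27 to 16.4%) and Twist1 (1.60 to 17.4%), except in C57BL/6 hindlimbs, where all 10 Hoxd13 UMIs came from 1 cell.

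Hox genes were also counted in cells with at most 2 of the 14 mesenchyme markers. These were 22 of 34 Dup and 19 of 25 C57BL/6 hindlimb cells, and 30 of 35 Inv1 and 41 of 45 G4 hindlimb cells, a subset chosen after seeing the data. Hoxa7 was at 104% of the mesenchyme level in Dup, 120% in C57BL/6, 90.9% in Inv1 and 81.0% in G4, from 4 to 12 UMIs a library, and Hoxa9 at 20.4% in Dup, 24.4% in C57BL/6, 18.0% in Inv1 and 19.7% in G4. Hoxd9 varied, at 57.2% in Dup, 0% in C57BL/6, 60.7% in Inv1 and 33.7% in G4. Hoxd13 was at 0 to 3.19% in the same cells and Pitx1 at 0.907 to 5.49%. Hoxc10 and Hoxc8 had 0 UMIs in them in all 4 hindlimb libraries, and Hoxc11 had 1 UMI in Dup and 0 in the other 3. Hoxc9 and Hoxc6 had 2 UMIs each in G4 (9.31% and 12.0%) and 0 in the other 3. The zeros allow up to 8.78 to 22.7% of the mesenchyme level for Hoxc10 and 38.4 to 163% for Hoxc8. They therefore do not show that these genes were off. Tbx4 had 1 UMI in each of Dup, C57BL/6 and Inv1 and 0 in G4. Against all endothelial cells, Hoxa7 and Hoxa9 stayed close to their level in C57BL/6, Inv1 and G4 hindlimbs and were lower in Dup hindlimbs, where Hoxa9 was at 40.0% over all cells.

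**Figure D5:**
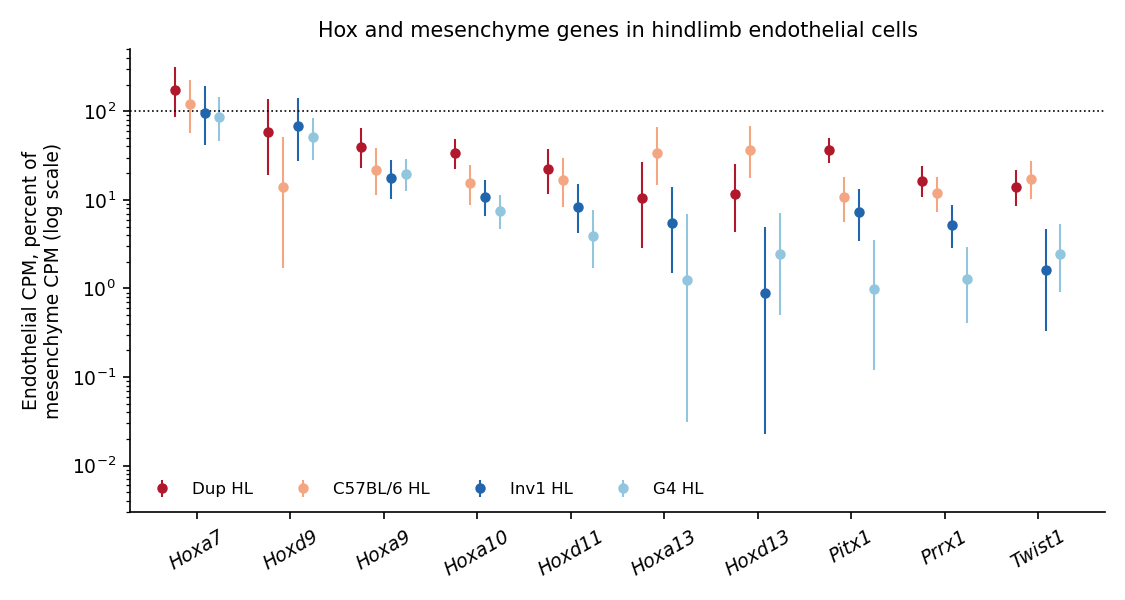
Endothelial level of Hox and mesenchyme genes (x axis) in the 4 hindlimb libraries as a percent of the mesenchyme level (y axis, log scale; the dotted line is 100%), with exact 95% intervals. Hoxa7 lies at 85.6 to 175%, while Prrx1 lies at 1.27 to 16.4%; genes at 0 have no point.

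Mmrn1, multimerin 1, a gene of the lymphatic list, was detected in 5 of the 6 endothelial sets. It had 41.8 CPM in Dup hindlimbs against 0 UMIs in C57BL/6 hindlimbs, 5.10-fold higher with the 0 set to a floor of 3 counts. Levels were 79.3 CPM in Inv1 and 81.9 CPM in G4 hindlimbs, and 74.4 CPM in Inv1 and 126 CPM in G4 forelimbs. The C57BL/6 library had 0 Mmrn1 UMIs in all of its 2249 cells.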

How the data were processed

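Single-cell 3′ RNA was measured in 6 limb bud libraries, 1 per group. The authors aligned and counted reads with Cell Ranger 3 (genome builds mm9 and mm10 per the submitters' processing notes, a custom mm9 per the methods), removed cells with 2000 or fewer genes, many mitochondrial UMIs or a high Scrublet doublet score, normalized with SCTransform, integrated and clustered in Seurat, and named the clusters. The deposited matrices hold unnormalized UMI counts, used here with the authors' annotation. No doublet caller was run here.

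Counts of endothelial cells with more than 2000 genes were summed per library and divided by their total (CPM). A total of 15668 genes were in both tables, and 14536 identifiers had a symbol. Intervals are exact at 95% (Poisson for levels, Clopper-Pearson for shares, conditional binomial for ratios). A count of 0 was replaced by a floor of 3 counts in folds, which leave out the counting error of the other count. With 1 library per group no test was run. Genes were measured in a pair when their mean was 50 CPM or more. Named were the 8 highest and 8 lowest log2 ratios of CPM + 50 (for Inv1, with 1 sign in both limbs), the 30 leading genes, the locus genes and members of 35 gene lists (393 genes, 14 without a row, 12 found by an older symbol). In list medians 0.5 UMI was added to each gene. The members and lists were chosen with earlier results of these data known. Alternatives were other gene minimums per cell, other CPM minimums, cells gated by markers, a second annotation, leaving out mixed cells, means over cells and median-of-ratios scaling. A further 13 per-sample columns stayed unused. The scripts, run in Python 3.11.15 with numpy 2.4.6, pandas 2.3.3, scipy 1.17.1 and matplotlib 3.10.9, were tested on simulated data. Promoters came from RefSeq (GRCm38.p6). One result is not reported here.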

Additional observations from a re-analysis of the deposited data

Results flagged for a closer look

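In endothelial cells, 6 genes went in opposite directions in the limbs between Inv1 and G4, each by 1.5-fold or more with an interval away from 1. The difference between limbs was not tested, since each group was 1 library, and every forelimb ratio rests on the 16 G4 forelimb cells. Sox17, an arterial SOX factor, had a ratio of 0.608 (0.458 to 0.801) in hindlimbs and 1.91 (1.27 to 2.95) in forelimbs. Nrp2, the Vegfc coreceptor, had 1.90 (1.44 to 2.51) in hindlimbs and 0.413 (0.302 to 0.564) in forelimbs. Calcrl, the partner of Ramp2 in the adrenomedullin receptor, had 1.55 (1.04 to 2.32) in hindlimbs and 0.343 (0.216 to 0.541) in forelimbs. Stmn2, a tubulin-binding protein best known from neurons, had 0.404 in hindlimbs and 1.85 in forelimbs. Meg3 had 1.92 (1.32 to 2.81) in hindlimbs and 0.174 (0.0936 to 0.309) in forelimbs. Its forelimb ratio came from 17 UMIs in Inv1 and 47 UMIs in G4, of which 1 G4 cell held 51.1%. Mllt4, the junction protein afadin, had 1.64 in hindlimbs and 0.595 in forelimbs.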

How the results depend on the processing

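No paired analysis was possible because no result came from a test: each comparison set 1 library against 1, so the groups shared fewer than 2 replicate numbers. Counts of genes past 2-fold moved most with the CPM minimum, which changes how many genes are measured. With 100 CPM or more and with 20 CPM or more, the genes higher were 7 and 227 for Dup over C57BL/6, 3 and 125 for Inv1 over G4 hindlimbs, 11 and 129 for Inv1 over G4 forelimbs, and 116 and 1100 for G4 forelimbs over hindlimbs, and the genes lower were 7 and 233, 1 and 40, 63 and 796, and 6 and 95 in the same pairs. As means over cells, 86 genes were lower in Dup, 63 were higher and 16 lower in Inv1 hindlimbs, and 63 were higher in Inv1 forelimbs. Median-of-ratios scaling gave 62 higher in Inv1 forelimbs and, between G4 limbs, 237 higher and 51 lower. In Dup, 54 genes were higher among cells with 3 of the 6 markers and 83 among cells with more than 3000 genes. The cause of these last moves was not tested. The Dup ratio of H19 reversed to 0.93 as a mean over cells. Of 267 alternatives over all results, 232 stayed within the interval or within 1.5 times the count, 34 moved and 1 reversed. The alternatives for single genes, the cells with few mesenchyme markers and the thinning were chosen after seeing the data. Sets of 16 to 45 cells limit every value.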
